A study of Saccharomyces cerevisiae with 6 samples.

Results

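The stretch described here is the 3′ end of the rDNA transcription unit of *Saccharomyces cerevisiae*, from the first nucleotide after the mature 25S rRNA, through the terminator T1, to the terminator T2. Its members were the 250 positions of the positive strand of chromosome XII from 460922 down to 460673 (R64 coordinates), which are positions 6648 to 6897 of a complete repeat of 9137 positions counted from the 35S start site. ETS2, which ends at T1 (position 6739, 460831), holds 92 of them, and the interval from T1 to T2 at position 6897 (460673) holds the other 158. The members were taken by position alone. NET-seq (native elongating transcript sequencing) gave 3 libraries from an *rpa12Δ* strain, in which *RPA12* is fully deleted, and 3 from the WT strain it was derived from. Both strains carry the HA-tagged Rpa135 subunit through which Pol I was isolated, and each culture of 3 litres was grown in YEPD to an A600 of 0.3. The many tandem rDNA repeats of the cell cannot be told apart in these data, so every value is an average over repeats.

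Pol I does not stop at the end of the 25S sequence. The RNase III enzyme Rnt1 cuts the nascent RNA at a stem-loop in ETS2, the exonuclease Rat1 then degrades the RNA that is still attached to the polymerase, and Reb1 or Nsi1 bound just past T1 acts as a barrier. T1 is the main terminator, and T2 is known as a fail-safe site for polymerases that pass it. Rpa12, also called A12.2, is the Pol I subunit needed for cleavage of the transcript inside the polymerase.

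A NET-seq read begins at the 3′ end of the nascent RNA, so the 5′ end of a positive-strand read gives the position of Pol I, and the far end of the read (its other end) gives the 5′ end of the sequenced RNA piece. Occupancy is given in RPM, which here means read ends per 1000000 that the library held at positions 1 to 6739. The *rpa12Δ* libraries held 13588526 to 14634449 reads and the WT libraries 4344302 to 6755222. In the stretch there were 43980 to 51810 read ends in *rpa12Δ* and 7003 to 9744 in WT, and 1 read end equalled 0.232 to 0.254 RPM in *rpa12Δ* and 0.451 to 0.712 RPM in WT. *RPA12* itself was covered by 0, 0 and 1 reads in the *rpa12Δ* replicates and by 8, 9 and 4 in the WT replicates. R64 holds the stretch in 2 copies, all its reads had a mapping quality of 0, and 49.4 to 50.5% of them had been placed on the copy counted here.

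Pol I occupancy in *rpa12Δ* exceeded that in WT across nearly the whole stretch, and by far more past T1 than before it. ETS2 took 7836, 6722 and 7216 RPM in *rpa12Δ* replicates 1 to 3, against 4178, 4573 and 4735 RPM in the WT replicates (log2 difference 0.69, SE 0.08, adjusted p = 0.000102 from limma). The interval from T1 to T2 took 4177, 4427 and 4934 RPM in *rpa12Δ*, against 221, 223 and 253 RPM in WT (log2 difference 4.28, SE 0.09, adjusted p = 3.24e-09 from limma). For every 100 read ends in ETS2, there were 53.3, 65.9 and 68.4 between T1 and T2 in *rpa12Δ* and 5.28, 4.87 and 5.34 in WT. The log2 ratio of the 2 parts differed by 3.59 between the strains, which did not overlap (exact two-sided permutation test, p = 0.1). With 3 libraries per strain this test gives no p below 0.1. Distinct read intervals counted once lowered the log2 difference from T1 to T2 to 3.05 and that of the ratio to 2.50, and T1 taken 1 nt earlier, since its numbering is uncertain by 1 nt, lowered them to 3.64 and 2.92.

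At single positions, limma without a filter on low values called 213 of the 248 members with any read end higher in *rpa12Δ* and 5 lower (adjusted p under 0.05), against 47.7% higher and 7.85% lower of the 9067 such positions of the repeat. In ETS2, 63 of 92 were called higher and 5 lower, with a median log2 difference of 1.15, against 0.42 over the repeat. Between T1 and T2, 150 of 156 were called higher and 0 lower, also at an unadjusted p under 0.05 among those with a mean of at least 10 RPM over the 6 libraries. That filter left 122 members for the test used for single positions below, with 101 called higher and 5 lower, against 39.2% and 10.8% of the repeat. Since 24 of its 75 positions in ETS2 and 43 of its 47 past T1 passed only through their *rpa12Δ* level, nothing is read from these filtered counts. Counting all 158 positions, occupancy in every *rpa12Δ* library lay above that in every WT library at 147, and in ETS2 it did so at 68 of 92 and lay below at 5. The same held for 50.9% (above) and 10.2% (below) of the positions of the whole repeat.

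**Figure D1:**
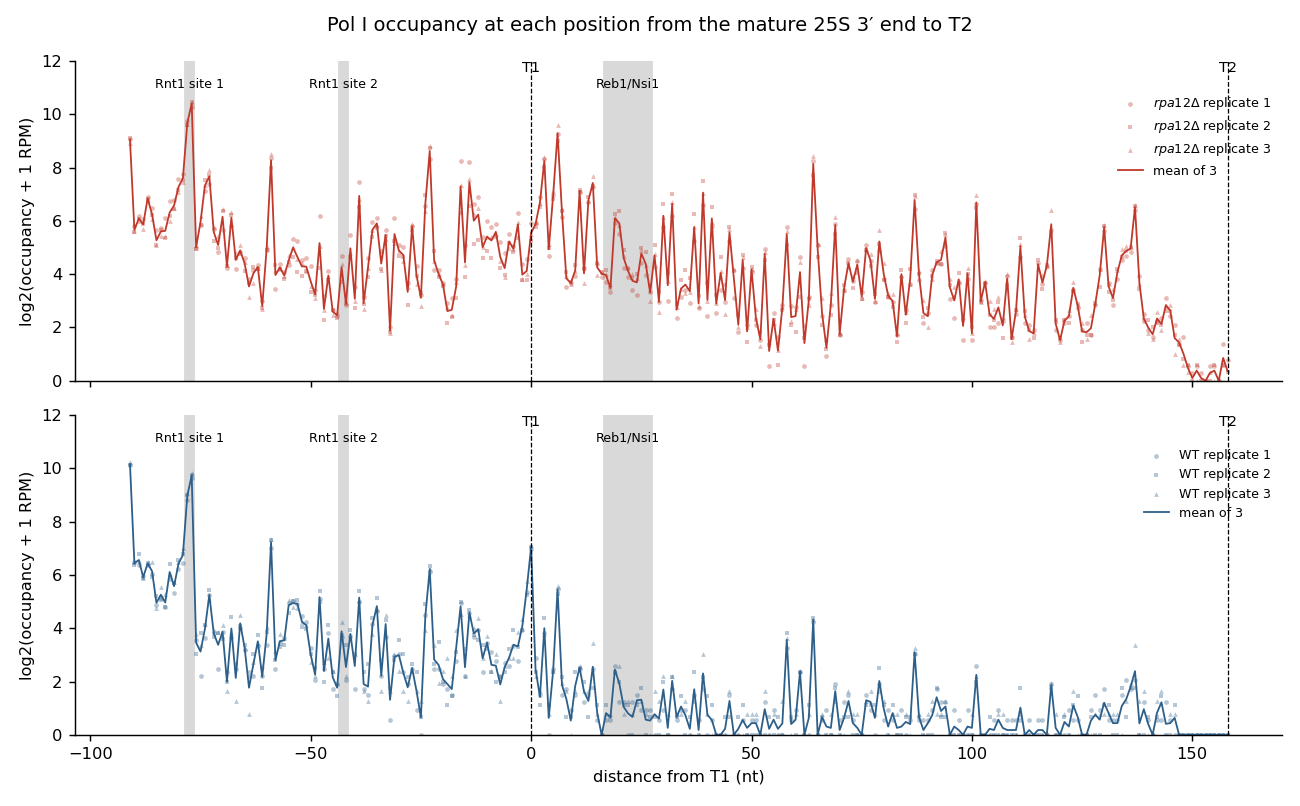
Pol I occupancy, as log2(occupancy + 1 RPM), at each of the 250 positions against the distance from T1 in nt, for *rpa12Δ* (top) and WT (bottom), with symbols for the 3 replicates and a line for their mean. Before T1 both strains share most peaks, and past T1 the *rpa12Δ* line stays high while the WT line lies near 0 with a few peaks.

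In bins of 10 nt laid out from T1, 23 of the 24 bins that lie wholly inside the stretch were called higher in *rpa12Δ*, with or without the filter. None of the 24 had a negative difference in limma, with 0 lower also at an unadjusted p under 0.05. Of the bins of the repeat that passed the filter, 53.9% were called higher and 11.7% lower. Some bins past T1 passed it only through their *rpa12Δ* level, such as positions 6780 to 6789 with a WT mean of 3.62 RPM. The comparison with the repeat is therefore given as a description. The bin of the stretch that was not called spans the second Rnt1 site, at positions 6690 to 6699. It took 199.9, 101 and 129 RPM in *rpa12Δ* and 88.5, 114 and 94.7 RPM in WT (adjusted p = 0.0689 from limma). The highest bin of ETS2 was the same in both strains, at positions 6660 to 6669, and so was the highest bin past T1, at positions 6740 to 6749 directly after it. That bin took 1372, 1192 and 1568 RPM in *rpa12Δ* and 76.3, 77.5 and 77.6 RPM in WT. The log2 differences ran from 0.35 to 2.39 in the ETS2 bins and from 2.58 to 5.47 in the bins past T1. These bins run from position 6650 to 6889, so positions 6648 and 6649, both called lower singly, are in none of them.

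The start of ETS2 ran against the rest of the stretch. Position 6648, the first nucleotide after mature 25S (460922), took 545, 555 and 484 RPM in *rpa12Δ*, against 1110, 1108 and 1201 RPM in WT, and was called lower (log2 difference -1.11, SE 0.13, adjusted p = 1.45e-06 from limma, and -0.47 with distinct intervals counted once). Positions 6649 and 6650 were also called lower, with log2 differences of -0.78 and -0.47 (adjusted p = 0.000240 and 0.0149 from limma), and the call at 6650 was lost without *rpa12Δ* replicate 3 or without WT replicate 2, with adjusted p of 0.0554 and 0.0928. With distinct intervals counted once, 6649 and 6650 both lost their call (adjusted p = 0.0751 and 0.203 from limma), and 6650 also lost it in the methods' test (0.0743) and with libraries thinned to the smallest 35S sum (0.0755). The 5 nt next to 25S held 10.9, 12.5 and 10.5% of the ETS2 read ends in *rpa12Δ*, against 34.1, 31.6 and 32.3% in WT. A read end here cannot be told apart from an end of processed 25S rRNA, and without these 5 nt ETS2 was 2.13 times as high in *rpa12Δ* as in WT, instead of 1.61 times.

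The highest member in both strains away from the mature end was the first Rnt1 site, where the enzyme opens the stem-loop. A read end at a cut cannot be told apart from the 3′ end of cut RNA, so these values need not mark Pol I. The ETS2 sum and the ratio of T1 to T2 over ETS2 include them. At position 6662 (460908), occupancy was 1240, 1423 and 1417 RPM in *rpa12Δ*, against 804, 859.9 and 899 RPM in WT (log2 difference 0.67, SE 0.14, adjusted p = 0.000567 from limma). At position 6661 (460909), it was 864, 785 and 787 RPM in *rpa12Δ*, against 449, 507 and 546 RPM in WT (log2 difference 0.70, adjusted p = 0.000272 from limma). With the cut placed between these 2 positions, both strains had the larger end after it. The numbering of the sites leaves 1 nt open, so the side of the cut is not settled. Neither position overlapped between the strains. Together these 2 positions held 26.9, 32.9 and 30.5% of the ETS2 read ends in *rpa12Δ* and 30.0, 29.9 and 30.5% in WT, so the strains overlapped in this share (exact permutation test, p = 1). When distinct read intervals were counted once, the direction turned to log2 differences of -0.34 at 6661 and -0.35 at 6662. Distinct intervals at 1 position differ only in length, and at 6662 the libraries held 49 to 55 of them.

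The nucleotides just past the first Rnt1 site differed more than the site itself. Position 6665 took 138, 185 and 160.4 RPM in *rpa12Δ*, against 11.3, 16.6 and 17.1 RPM in WT. Its log2 difference was the largest of the tested ETS2 positions (3.35, SE 0.18, adjusted p = 4.61e-11 from limma). With distinct intervals counted once it was 1.06 and no longer the largest, as position 6702 had 2.42. Between the Rnt1 sites, position 6680 (460890), the third highest of WT in ETS2 once the 5 nt next to 25S were left out, took 325, 253 and 361 RPM in *rpa12Δ*, against 128, 159 and 162 RPM in WT (log2 difference 1.05, adjusted p = 1.34e-05 from limma). Distinct intervals gave only 0.08 at this position, and the call was lost. The second Rnt1 site itself held few read ends, with 31.1, 18.8 and 26.2 RPM over its 2 positions in *rpa12Δ* and 14.9, 21.9 and 21.4 RPM in WT, so the strains overlapped (exact permutation test, p = 0.3). This overlap holds for the placement used, which leaves 1 nt open. Position 6698, directly after the site, took 43.1, 24.3 and 26.7 RPM in *rpa12Δ*, against 12.2, 14.2 and 12.1 RPM in WT. It was called higher (adjusted p = 0.000292 from limma).

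From the second Rnt1 site to T1, occupancy per position was 61.2, 39.2 and 48.4 RPM in *rpa12Δ*, against 13.3, 15.8 and 14.97 RPM in WT. The highest position there in *rpa12Δ* was 6716 (460854), which lies 23 nt before T1 and was the third highest of ETS2 in this strain. It took 323, 425 and 448 RPM in *rpa12Δ*, against 67.3, 80.5 and 74.1 RPM in WT (log2 difference 2.40, SE 0.15, adjusted p = 2.05e-10 from limma). Distinct intervals counted once gave 0.27 there. A cluster at positions 6723 to 6727, 16 to 12 nt before T1 and chosen after its values were seen, varied most among the *rpa12Δ* libraries. It took 845, 258 and 538 RPM in *rpa12Δ*, against 82.6, 87.0 and 81.9 RPM in WT. *rpa12Δ* replicate 2 was the lowest of its strain there, yet lay above every WT library. The same replicate was the highest of its strain at position 6778, past T1, with 181 RPM against 96.0 and 132 in *rpa12Δ* replicates 1 and 3.

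At T1 the order of the strains turned round within a few nucleotides. T1 took 59.4, 37.0 and 44.0 RPM in *rpa12Δ*, against 125, 131 and 140.3 RPM in WT, and was called lower (log2 difference -1.50, SE 0.17, adjusted p = 5.80e-07 from limma, and -0.77 with distinct intervals counted once). The nucleotide before it, position 6738, was the other lower call, with 22.95, 12.7 and 14.99 RPM in *rpa12Δ*, against 39.7, 37.3 and 53.4 RPM in WT (log2 difference -1.34, adjusted p = 6.56e-05 from limma). The nucleotide after it, position 6740, took 60.1, 53.0 and 60.5 RPM in *rpa12Δ*, against 6.32, 4.14 and 3.56 RPM in WT, so that every *rpa12Δ* library lay above every WT library.

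The rank of T1 among its neighbours differed accordingly. It was the highest of the last 40 nt of ETS2 in all 3 WT libraries, and it ranked 13, 13 and 12 among them in the *rpa12Δ* replicates. Compared with the mean of the 10 nt that follow it, T1 was 0.433, 0.310 and 0.281 times as high in *rpa12Δ*, and 16.3, 16.9 and 18.1 times as high in WT, with no overlap (exact permutation test, p = 0.1). It held 13.8, 14.1 and 13.9% of the last 10 nt up to T1 in *rpa12Δ*, against 56.3, 57.4 and 54.6% in WT.

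**Figure D2:**
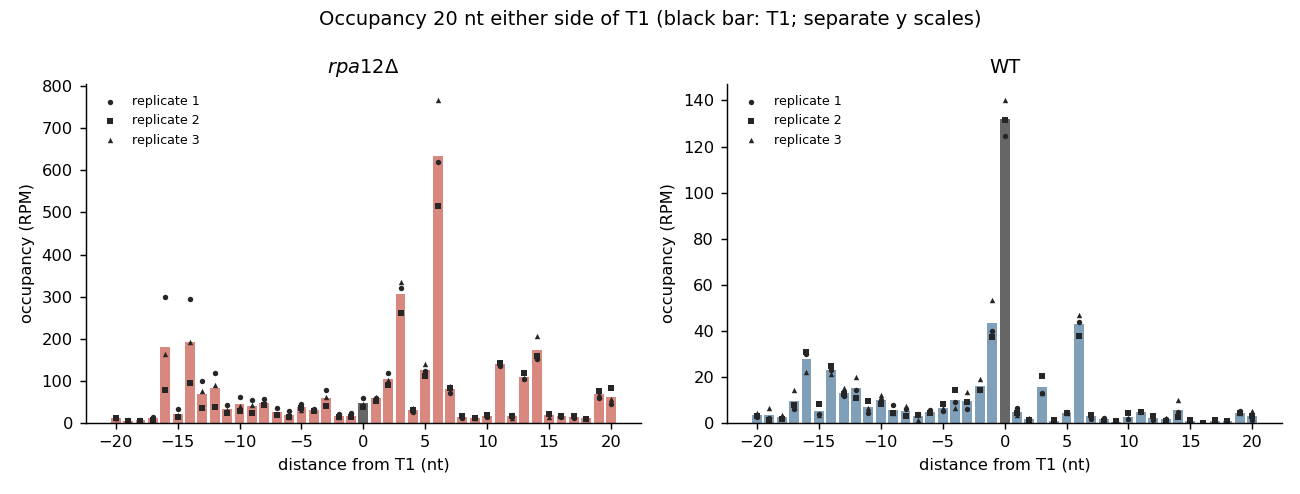
Occupancy in RPM at the 20 nt on either side of T1, for *rpa12Δ* (left) and WT (right) on separate scales; bars are means of 3 libraries and symbols the replicates. T1, the black bar, is the highest of these positions in WT only, and the position 6 nt past T1 is the highest of *rpa12Δ*, at 515 to 768 RPM.

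Reads that run across T1 show RNA that continues from ETS2 into the interval past it. Reads crossing T1 numbered 9399, 8667 and 9913 in *rpa12Δ* and 231, 189 and 167 in WT, or 2179, 2197 and 2477 RPM in *rpa12Δ* and 104, 112 and 119 RPM in WT. For each read that ended at T1, 36.7, 59.4 and 56.3 reads crossed it in *rpa12Δ*, against 0.837, 0.851 and 0.848 in WT. Of the read ends between T1 and T2, 52.2, 49.6 and 50.2% belonged to a read that crossed T1 in *rpa12Δ*, and 47.2, 50.3 and 47.0% in WT. This share overlapped between the strains (exact permutation test, p = 0.3), and as no read was shorter than 20 nt it is largely set by distance. Among ends more than 20 nt past T1, 10.7, 13.6 and 9.73% crossed it in *rpa12Δ*, against 6.52, 11.9 and 7.88% in WT (exact permutation test, p = 0.3).

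Between T1 and T2 the 3 highest positions were the same in both strains, although their levels differed. Position 6745 (460825), 6 nt past T1, was the highest, with 619, 515 and 768 RPM in *rpa12Δ*, against 43.8, 37.9 and 47.0 RPM in WT (log2 difference 3.84, SE 0.15, adjusted p = 1.50e-12 from limma). Position 6742 (460828), 3 nt past T1, took 320.2, 262 and 336 RPM in *rpa12Δ*, against 13.1, 20.1 and 12.8 RPM in WT (log2 difference 4.25, adjusted p = 1.85e-12 from limma). Position 6803 (460767), 64 nt past T1, took 301, 212 and 347 RPM in *rpa12Δ*, against 17.6, 20.1 and 19.2 RPM in WT (log2 difference 3.82, adjusted p = 4.44e-12 from limma). With distinct intervals counted once, the log2 differences at 6745, 6742 and 6803 were 0.73, 1.15 and 1.06. Of the 10 highest positions of each strain, 6 were shared, as they were in ETS2 without the 5 nt next to 25S.

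The likeness of the 2 profiles is given as a description, since positions of a library share its depth. Over the 158 positions past T1, Spearman's rho was 0.62 to 0.70 between libraries of different strains, 0.96 to 0.97 within *rpa12Δ* and 0.59 to 0.65 within WT, where a library had only 355 to 489 read ends. Over the 87 ETS2 positions left without the 5 nt next to 25S, it was 0.67 to 0.74 between strains, 0.92 to 0.97 within *rpa12Δ* and 0.89 to 0.92 within WT.

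Among called positions that reached 50 RPM in at least 1 strain, the 5 largest rises all lay past T1, and as all 5 passed the filter through their *rpa12Δ* level alone they are given as a description. Position 6780 (460790) took 55.6, 89.7 and 60.7 RPM in *rpa12Δ*, against 0.451, 1.18 and 0 RPM in WT, a log2 difference of 5.54. The WT values there lay below the floor of 3 read ends, 1.35 to 2.14 RPM, so this fitted difference depends on the pseudocount of 1 RPM. The next were positions 6752, 6741, 6753 and 6778, with log2 differences of 5.51, 5.27, 4.87 and 4.75. All 5 lie 2 to 41 nt past T1, on both sides of the Reb1/Nsi1 site.

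The binding site for Reb1 and Nsi1, at positions 6756 to 6766 (460804 to 460814), held less per position than the nucleotides just before it in both strains. Its mean occupancy per position was 19.9, 29.8 and 25.5 RPM in *rpa12Δ*, against 1.31, 1.40 and 1.55 RPM in WT. The 16 nt between T1 and the site held 113, 104 and 129 RPM per position in *rpa12Δ*, against 5.56, 5.59 and 6.10 RPM in WT. Within the site, position 6758 was the highest, with 59.4, 75.0 and 69.0 RPM in *rpa12Δ* and 4.97, 4.14 and 4.27 RPM in WT. Past the site, occupancy per position was 19.5, 22.6 and 23.9 RPM up to the annotated 35S end in *rpa12Δ*, against 1.02, 1.08 and 1.18 RPM in WT, and 8.96, 9.20 and 10.04 RPM over the last 39 nt up to T2 in *rpa12Δ*, against 0.614, 0.470 and 0.749 RPM in WT.

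Mean occupancy past T1 was 19.4 times as high in *rpa12Δ* as in WT, and the shares of the read ends in 4 successive segments overlapped between the strains. The 16 nt before the Reb1/Nsi1 site held 43.4, 37.6 and 41.8% of them in *rpa12Δ* and 40.3, 40.2 and 38.6% in WT. The 92 nt from that site to the annotated end of the 35S precursor, at position 6858 (460712), held 43.0, 46.9 and 44.6% in *rpa12Δ* and 42.3, 44.7 and 43.1% in WT. The last 39 nt up to T2 held 8.37, 8.10 and 7.94% in *rpa12Δ* and 10.8, 8.24 and 11.5% in WT. The site itself held 5.23, 7.41 and 5.68% in *rpa12Δ* and 6.54, 6.91 and 6.76% in WT. These overlaps (exact permutation tests, p = 0.5, 0.5, 0.2 and 0.4) do not show that the shares are equal, and finer measures did differ. The 10 highest positions of each library held 49.5, 44.1 and 49.02% of the read ends in *rpa12Δ*, against 52.4, 54.0 and 53.5% in WT, and positions 6878 to 6887 held 0.871, 0.727 and 0.643% in *rpa12Δ*, against 2.04, 1.86 and 2.82% in WT (exact permutation tests, p = 0.1 each). Both are limited by depth, as past T1 the WT libraries held 355 to 489 read ends and the *rpa12Δ* libraries 17465 to 19746. No value at equal depth is given for the 10 highest positions. Positions 6878 to 6887 held few WT read ends.

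The stretch ended in a run with almost no read ends. The 10 nt up to and including T2 held 20, 9 and 4 read ends in the *rpa12Δ* libraries, or 4.64, 2.28 and 1.00 RPM, and 0 in each WT library, where a count of 0 allows up to 1.35, 1.78 and 2.14 RPM. At T2 itself, 3, 1 and 0 reads ended in *rpa12Δ* and 0 in each WT library. Of the 149 windows of 10 nt between T1 and T2, none was lower in *rpa12Δ* by mean, and the lowest window that does not touch this run held 33.4 RPM.

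On either side of this run, read ends were found. The 10 nt before it held 36.4, 32.2 and 31.7 RPM in *rpa12Δ*, against 4.51, 4.14 and 7.12 RPM in WT, and the 10 nt after T2 held 357, 282 and 323 RPM in *rpa12Δ*, against 12.2, 8.29 and 9.26 RPM in WT. Reads did pass through it: 2578, 2239 and 2645 reads covered the whole run in *rpa12Δ*, and 38, 21 and 16 did so in WT. The other end of a read fell inside the run 576, 785 and 1018 times in *rpa12Δ* and 5, 5 and 7 times in WT. The shortage therefore concerned the Pol I ends of reads and not their other ends. Along the 6730 such windows from position 1 to T1, 4 were as low in *rpa12Δ* or lower.

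**Figure D3:**
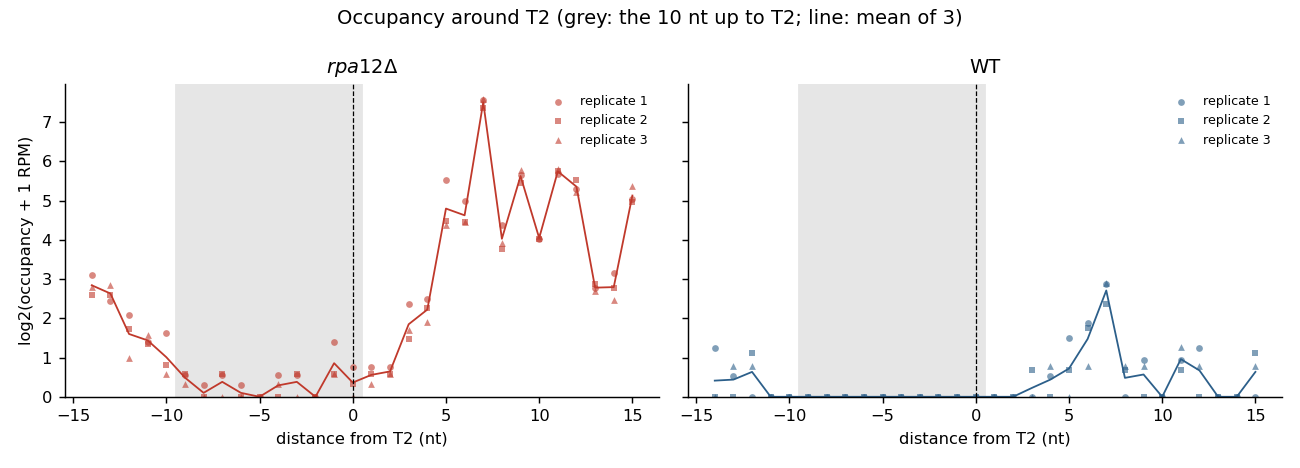
log2(occupancy + 1 RPM) against the distance from T2 in nt, for *rpa12Δ* (left) and WT (right), with symbols for replicates, a line for their mean and grey for the 10 nt up to T2. The grey run lies near 0 in both strains, and the position 7 nt past T2 reaches 162 to 193 RPM in *rpa12Δ*.

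How evenly read ends were spread was measured by an effective number of positions, which is the exponential of the Shannon entropy and equals the number of positions if all are the same. In ETS2 without the 5 nt next to 25S it was 34.8, 27.2 and 29.6 in *rpa12Δ*, against 21.6, 23.03 and 21.4 in WT, and at equal depth it differed by 8.22 instead of 8.51. From T1 to T2 it was 52.7, 60.3 and 51.9 in *rpa12Δ*, against 42.7, 36.9 and 41.7 in WT. Thinned to 355 read ends per library, an alternative chosen after seeing the data, the values past T1 became 43.2, 49.3 and 42.6 in *rpa12Δ* and 40.7, 36.6 and 41.7 in WT, and the difference fell to 5.39, against 14.6 unthinned. The strains did not overlap in any of these 4 comparisons (exact permutation test, p = 0.1 each).

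Mean read lengths overlapped between the strains in both parts. In ETS2 the mean was 33.5, 32.6 and 32.3 nt in *rpa12Δ*, against 31.4, 32.9 and 32.4 nt in WT (exact permutation test, p = 0.5). From T1 to T2 it was 32.2, 31.3 and 30.8 nt in *rpa12Δ*, against 29.9, 30.7 and 30.9 nt in WT (exact permutation test, p = 0.2). Reads were shorter past T1 than in ETS2 in all 6 libraries, by 1.37, 1.37 and 1.57 nt in *rpa12Δ* and by 1.45, 2.22 and 1.46 nt in WT. With both rDNA copies summed the strains no longer overlapped from T1 to T2, and the difference of 0.89 nt became 1.07 nt. With distinct intervals counted once, the differences were 3.01 nt in ETS2 and 5.63 nt from T1 to T2, both without overlap. In that setting each length counts once per position, however many reads have it. The *rpa12Δ* libraries held 5871 to 6338 distinct intervals in the stretch and the WT libraries 1580 to 1826. Whether this difference in depth contributes was not tested.

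**Figure D4:**
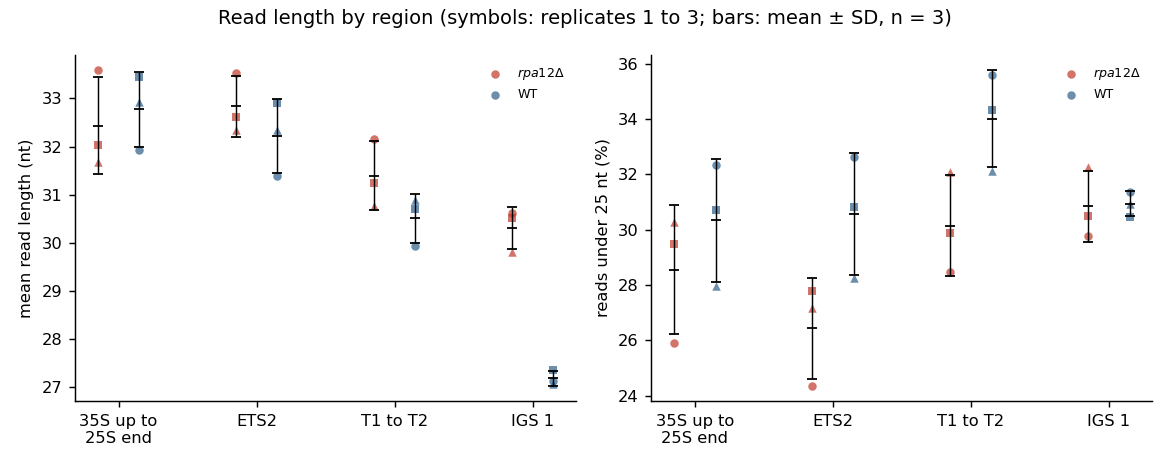
Mean read length in nt (left) and percent of reads under 25 nt (right) for the 35S gene up to the 25S end, ETS2, T1 to T2 and the first intergenic spacer past T2 (IGS 1), with *rpa12Δ* left of WT in each pair, symbols for replicates and bars for mean ± SD (n = 3). The strains overlap in mean length up to T2, while IGS 1 reads are shorter in WT, at 27.1 to 27.4 nt.

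Other measures of length overlapped in part. The median overlapped in ETS2 and from T1 to T2 (exact permutation tests, p = 0.6 each). So did the share of reads of 60 nt or more (exact permutation tests, p = 0.3 and 0.5). Reads under 25 nt in the first 20 nt after T1 overlapped as well (exact permutation test, p = 0.2). The strains did not overlap in the measures that follow, except where stated. In the first 20 nt after T1 the mean was 31.4, 30.6 and 30.3 nt in *rpa12Δ*, against 29.3, 29.5 and 30.03 nt in WT. Relative to the 35S gene up to the mature 25S end, the mean in ETS2 differed by -0.0456, 0.580 and 0.662 nt in *rpa12Δ* and by -0.539, -0.544 and -0.582 nt in WT, and that from T1 to T2 by -1.42, -0.790 and -0.910 nt in *rpa12Δ* and by -1.99, -2.76 and -2.04 nt in WT (exact permutation tests, p = 0.1 each). Reads under 25 nt made up 24.4, 27.8 and 27.2% of those ending in ETS2 in *rpa12Δ*, against 32.6, 30.8 and 28.2% in WT, and 28.5, 29.9 and 32.08% of those ending between T1 and T2 in *rpa12Δ*, against 35.6, 34.3 and 32.11% in WT (exact permutation test, p = 0.1 each). Past T1, *rpa12Δ* replicate 3 and WT replicate 3 lay only just apart. In the 35S gene up to the mature 25S end, the same share was 25.9, 29.5 and 30.3% in *rpa12Δ* and 32.3, 30.7 and 28.0% in WT, so the strains overlapped there. The largest peak past T1, position 6745, had 37.1, 36.3 and 37.4% such reads in *rpa12Δ* and 50.5, 48.4 and 37.9% in WT. The WT shares there rest on 97, 64 and 66 read ends, and replicate 3 of the strains lay only just apart.

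The commonest read was the same piece of RNA in both strains at some peaks and not at others. At position 6662 it was 21 nt long with its other end at position 6642 in all 6 libraries, and it made up 12.01 to 12.9% of the reads there in *rpa12Δ* and 12.6 to 13.1% in WT. At position 6716 it was 21 nt long and began at position 6696 in all 6 libraries. At position 6803 it was 26 nt long and began at position 6778 in all 3 *rpa12Δ* libraries and in WT replicates 1 and 3. At position 6745, the largest peak past T1, it was 23 nt long in all 3 *rpa12Δ* libraries. In WT replicates 1 to 3 it was 23, 22 and 31 nt long there.

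Part of the reads between the second Rnt1 site and T1 began at the cut. Of the reads that ended in the 40 nt up to T1, 29.3, 16.4 and 24.8% had their other end within 1 nt of the first nucleotide after the second Rnt1 cut in *rpa12Δ*, against 15.4, 13.0 and 16.2% in WT. The strains did not overlap (exact permutation test, p = 0.1), but the highest WT and the lowest *rpa12Δ* library lay close to each other. Position 6698 was the commonest other end, with 16.6, 7.95 and 15.9% of these reads in *rpa12Δ* and 7.03, 7.20 and 7.36% in WT.

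In the cluster before T1, chosen after its values were seen, 60.3, 44.6 and 53.3% of the reads began at the cut in *rpa12Δ*. In WT the values were 46.4, 40.8 and 45.2%, so the strains overlapped (exact permutation test, p = 0.3). At position 6723, the 26 nt piece that begins at position 6698 made up 41.2, 31.7 and 47.5% of the reads in *rpa12Δ* and 31.8, 34.6 and 32.3% in WT, again with overlap. *rpa12Δ* replicate 2, lowest in that cluster, was also lowest in the share of reads that begin at the cut. Over all reads that ended in the 40 nt up to T1, the share that began at the cut differed by 8.62 percentage points between the strains. With distinct intervals counted once, this difference turned to -3.97 points, and with reads of at least 25 nt it was 10.3 points with overlapping strains. The reads of the same 40 nt that did not begin at the cut also differed, at 1778, 1352 and 1505 RPM in *rpa12Δ* and 462, 557 and 511 RPM in WT.

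**Figure D5:**
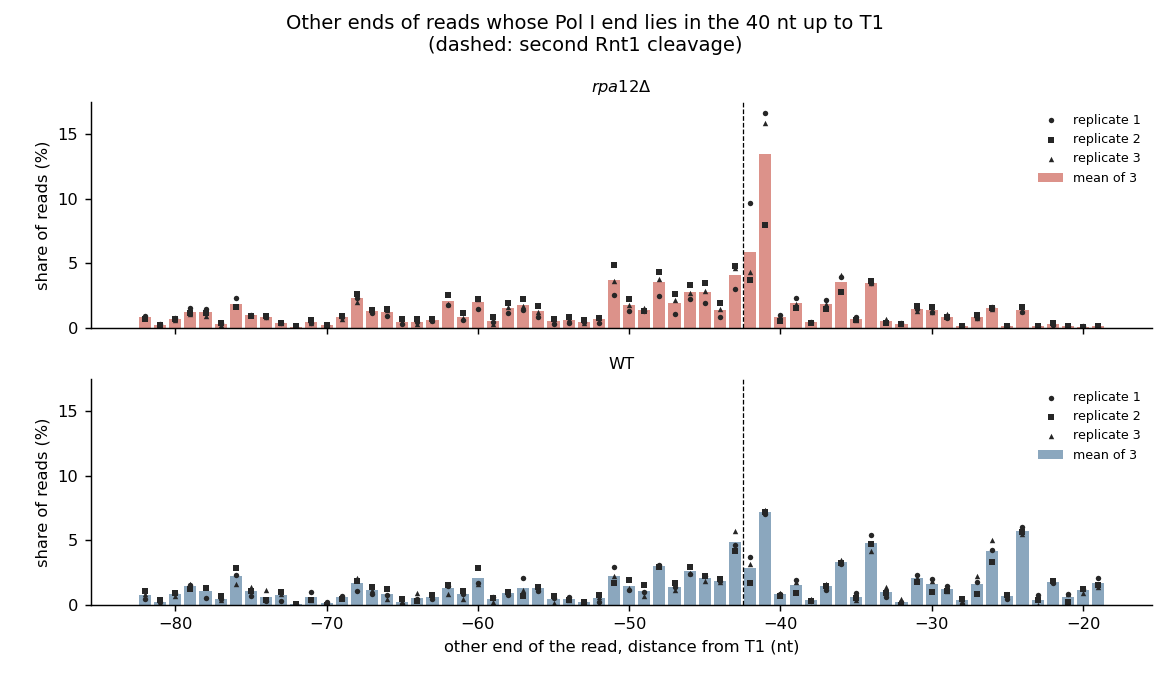
Share of reads in percent, among those whose Pol I end lies in the 40 nt up to T1, by the distance of their other end from T1 in nt, for *rpa12Δ* (top) and WT (bottom); bars are means of 3 libraries, symbols the replicates, and the dashed line the second Rnt1 cut. The tallest bar of both strains stands just past the cut, at 7.95 to 16.6% in *rpa12Δ* and 7.03 to 7.36% in WT.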

How the data were processed

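The authors deposited 1 line per aligned read and library (start, end, strand), with a mapping quality score of 0 to 60. The submitters' processing notes list bcl2fastq 2.18.0.012, Trim Galore 0.4.1, BWA 0.6 and SAMtools 1.3.1; the build is not given in the sources used here, and chromosome lengths fit R64. Gene coordinates are from RefSeq's R64 annotation. T1, T2 and the Rnt1 sites follow the study, whose numbering leaves 1 nt open.

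Read ends on the complete repeat were divided by the library's ends at positions 1 to 6739. A further, partial copy in R64 takes some reads of the denominator and of positions 6648 and 6649. Occupancies were tested as log2(occupancy + 1 RPM) with limma 3.58.1 (R 4.3.3), Benjamini-Hochberg at 0.05, with a variance trend for positions and bins of at least 10 RPM and without one for 12 regional sums; other measures had an exact two-sided permutation test (Python 3.11.15, scipy 1.17.1) and count as different where the strains do not overlap. On simulated data limma recovered 187 of 192 changed positions among 6024, with 10 false calls. Only positions with a WT mean of at least 10 RPM were changed there, at a fixed spread between libraries. The simulation therefore does not cover positions that passed the filter only through *rpa12Δ*, which are most of those tested past T1. PCR copies are not independent molecules, so floors (3 read ends) cover counting error only.

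Positions named are the study's sites, the 3 highest of each strain per part, and the 5 largest rises and falls of at least 50 RPM with the same direction in every same-numbered pair, besides the highest bins. Members, lists and tests were chosen with earlier results of these data known. Alternatives changed the copies, reads, denominator, filter, pseudocount, test, depth, T1 and replicates.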

Additional observations from a re-analysis of the deposited data

Results flagged for a closer look

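Read ends on the strand opposite to the transcript, which no comparison uses, were more frequent in *rpa12Δ* than in WT. From the mature 25S end to T2 they numbered 48, 33 and 32 in the *rpa12Δ* replicates and 12, 6 and 8 in the WT replicates, a mean of 9.16 RPM in *rpa12Δ*, against 4.89 RPM in WT, with no overlap (exact permutation test, p = 0.1). In these libraries the opposite strand held far fewer ends than the transcript strand, with 43980 to 51810 in *rpa12Δ* and 7003 to 9744 in WT.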

How the results depend on the processing

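For the counts, sums, ratio, read lengths, effective numbers and cut share, 158 recomputed values kept their direction and call, and the others follow. Of the positions called higher, 101 in the test reported, distinct intervals counted once gave 205 (93 of the 101 among them), the absence of a filter 213 (all 101) and division by all reads of a file 38 (all among the 101); these 3 settings took 236, 248 and 50 positions into the test, against 122. Distinct intervals lowered the log2 difference from T1 to T2 to 3.05 and that of its ratio to ETS2 to 2.50, and T1 taken 1 nt earlier to 3.64 and 2.92. Distinct intervals also turned the share of reads beginning at the second Rnt1 cut to -3.97 points and the log2 differences at positions 6661 and 6662 to -0.34 and -0.35, and raised the read length differences to 3.01 nt in ETS2 and 5.63 nt from T1 to T2, where the strains no longer overlapped; the cause was not tested. With reads of at least 25 nt the cut share differed by 10.3 points with overlap. With both copies summed, and also with the partial copy included (chosen after seeing the data), the length difference from T1 to T2 was 1.07 nt without overlap, and leaving out 1 library gave 0.50 to 1.20 nt, without overlap when *rpa12Δ* replicate 3 or WT replicate 3 was left out. Leaving out 1 library gave 85 to 108 positions called higher and 4 to 6 lower, 21 to 24 bins called higher, log2 differences of 0.63 to 0.74 for ETS2, 4.21 to 4.34 for T1 to T2 and 3.52 to 3.70 for their ratio, and cut shares of 5.71 to 12.2 points. The methods' test with Benjamini-Hochberg adjustment called 85 positions higher and 4 lower. With replicate number as a block, 101 positions were called higher and 5 lower, the same positions as without it; same-numbered libraries of the 2 strains deviated together with correlations of -0.08 to 0.08, so the numbers were not taken to pair the samples. WT depth limits single positions past T1, where 31 of 158 held no WT read end.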
